A study of Mus musculus with 6 samples.

Results

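Potassium channel genes were followed in mouse primary neurons in which *Pla2g4e*, a calcium-dependent N-acyltransferase of the cytosolic phospholipase family, had been knocked down. The set held genes whose symbols matched a pattern for the Kcn families, pore-forming and auxiliary subunits alike. Each had at least 6 reads in at least 1 of the 6 libraries. The pattern did not take *Kcnma1*, the pore gene of BK channels, so that all counts, sums and shares of the set leave it out. Its values are given apart. Of the 97 symbols that matched, 5 antisense or overlapping RNAs (among them *Kcnq1ot1*) were left out and 14 genes had fewer reads than that in every library. The remaining 78 genes were 78 of the 21876 genes tested, from 55357 in the count files. They fell into 48 genes of voltage-gated (Kv) channels, 11 of inward rectifiers (Kir), 10 of 2-pore-domain channels (K2P) and 9 called calcium- and sodium-activated here. The latter are the Kcnn, Kcnt and Kcnmb genes and *Kcnu1*, which was placed with them as a relative of BK channels (Slo3) although voltage and internal pH, not calcium or sodium, open its channel.

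Both groups were primary cultures of cortical and hippocampal neurons from wild type C57BL/6N embryos at E18. They were transduced with lentivirus at DIV4 and collected at DIV14. The 3 shCtrl libraries came from neurons that received particles with what the labels call a control or scrambled shRNA. The 3 shPla2g4e libraries came from neurons given particles that express the sh2 shRNA against *Pla2g4e* from the pLVTHM vector. Poly(A) RNA was sequenced. The labels do not say that libraries of a group came from separate cultures or embryos, so that p-values measure the spread between these libraries, which may be technical.

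Potassium channels let potassium leave the cell along its gradient and so set the resting potential, end action potentials and limit repetitive firing. Kv channels open on depolarization and are built from 4 pore subunits, to which silent subunits and cytoplasmic or membrane auxiliary proteins can be added. Kir channels pass current best near rest, K2P channels carry leak current, and the calcium- and sodium-activated channels form the afterhyperpolarization that follows spikes. In neurons M-channels (Kv7), Kv2 and Kv1 channels are concentrated at the axon initial segment or the soma, whereas in astrocytes Kir channels take up extracellular potassium.

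Between 17054717 and 23570180 reads were counted per library, of which the 78 genes took 0.425% to 0.450% in shCtrl and 0.367% to 0.406% in shPla2g4e. Values are CPM, that is counts per library scaled by edgeR's TMM factors and the library's total. The targeted gene, *Pla2g4e*, stood at 38.0, 35.1 and 35.4 CPM in shCtrl and 21.8, 14.1 and 18.7 CPM in shPla2g4e (log2 fold change -0.99 ± 0.131 (SE, n = 3 per group), edgeR adjusted p = 1.2e-04). Of 6 neuronal markers, which summed to 4536 CPM or more in every library, *Rbfox3* and *Map2* were lower, and with the replicate number as a block *Snap25* was also higher. The call of *Rbfox3* was lost when any of 5 of the 6 libraries was left out, and that of *Map2* without shCtrl replicate 2. Of 6 astrocyte markers 2 were called lower (*Aqp4* and *Slc1a2*). The call of *Slc1a2* was lost without any of 5 libraries and with library size alone, upper-quartile scaling or 10 reads in every library, and DESeq2 did not call *Aqp4* (DESeq2 adjusted p = 0.012). With the block 4 were lower and 1 higher, their summed level spanning 2449 to 3135 CPM in shCtrl and 1666 to 2656 CPM in shPla2g4e. The 5 microglial markers tested summed to 2.59 to 7.73 CPM in any library, and none of them or of the markers of the oligodendrocyte lineage (440.1 to 526 CPM) and of endothelial and mural cells (26.5 to 72.3 CPM) was called by edgeR, limma after voom or DESeq2, with 4 of these 16 at an unadjusted p under 0.05. With the block *Olig2*, of the oligodendrocyte lineage, was lower. Among 6 markers of GABAergic interneurons (631 to 757 CPM in sum), *Slc32a1* was lower and *Sst* higher, and with the block 2 were lower and 2 higher. In bulk RNA, fewer cells of a type and less RNA per cell cannot be told apart, and the part of these markers in the results that follow was not tested.

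Transcripts of potassium channels were lower after knockdown more often than they were higher. Of the 78 genes, 12 passed the test as lower and 1 as higher (edgeR's quasi-likelihood test, Benjamini-Hochberg adjusted p under 0.01 over 21876 genes), against 4.00% of all genes called lower, 2.48% called higher and 6.49% called in all. That is 15.4% and 1.28% of the set. Among the 12 lower genes were *Kcnq5*, *Kcnc4*, *Kcnh5*, *Kcnk4*, *Kcnh1*, *Kcnip1*, *Kcnj3*, *Kcnh7*, *Kcnq3*, *Kcng1* and *Kcnc2*, and the 1 higher gene was *Kcnj16*. The labels do not say that libraries of equal replicate number belong together, and they were taken as pairs from correlations within these same data. With the number as a block 25 of the 78 were lower and 2 higher, against 9.02% and 6.50% (15.5% in all) of all genes. With scaling by library size alone, 43.4% of the calls over all genes were lower in place of 61.7%, and of the members 10 were lower and 1 higher. The median log2 fold change was -0.17 over the 78 genes and 0.029 over all genes tested, and -0.091 and 0.10 with library size alone, so that log2 fold changes nearer to 0 than this shift can change sign with the scaling. The set held more abundant genes than the genome at large. Among the 53 members with a mean of 8 CPM or more, 12 were lower and 0 higher (edgeR, limma after voom and DESeq2 called none higher, and 4 were higher at an unadjusted p under 0.05), against 7.66% and 3.41% of all genes at that level. Their median was -0.24, and that of all genes at that level -0.024.

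These counts changed when single libraries were left out. Without shCtrl replicate 1, shCtrl replicate 2 or shPla2g4e replicate 2 in turn, 5, 6 and 7 genes were lower, where the calls over all genes numbered 928, 695 and 931 in place of 1419, and without shCtrl replicate 2 none was higher by edgeR, *Kcnj16* then having an adjusted p of 0.014. *Kcnq5*, *Kcnc4*, *Kcnh5* and *Kcnk4* passed in each of the 6 fits that left out 1 library. The 3 libraries of shPla2g4e lay below all 3 of shCtrl in 27 genes and above them in 9, where 14.6% and 15.5% of all genes did so.

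**Figure D1:**
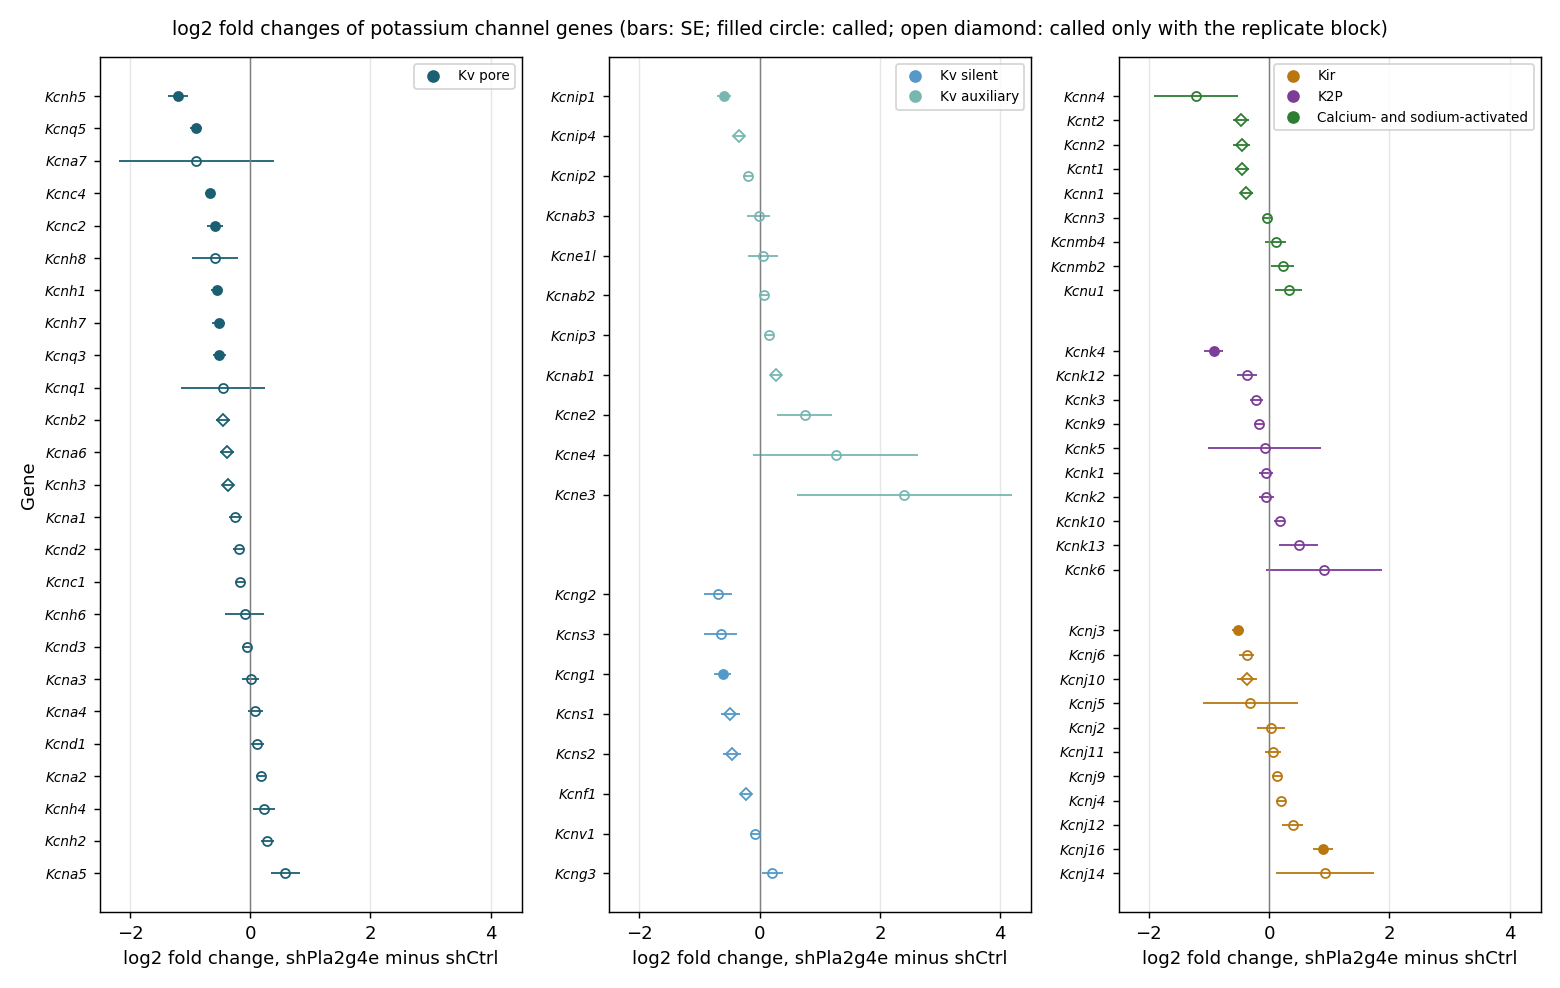
log2 fold change (x axis, shPla2g4e minus shCtrl) of 74 of the 78 genes (y axis), coloured by class, with bars for the SE. Filled circles are 12 genes called and open diamonds 13 called only with the replicate block, and most of both lie to the left of 0, while the genes with the widest bars have few reads.

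By class, the counts stand beside 4.00% of all genes called lower, 2.48% called higher and 15.5% called with the block. Of the 48 Kv genes 10 were lower and 0 higher, and with the block 18 were lower and 1 higher (at an unadjusted p under 0.05, 22 were lower and 4 higher; limma after voom and DESeq2 called none higher). Without shCtrl replicate 1, shCtrl replicate 2 or shPla2g4e replicate 2, the Kv calls numbered 4, 4 and 6. Of the 11 Kir genes 1 was lower and 1 higher (1, 0 and 1 calls without those libraries), and of the 10 K2P genes 1 was lower. None of the 9 calcium- and sodium-activated genes passed with edgeR or limma after voom, although DESeq2 called 1, 4 had an unadjusted p under 0.05 and 4 were lower with the block. Without shCtrl replicate 2 or shPla2g4e replicate 3, 1 and 2 of them passed. Whether the classes differ from one another was not tested. Median log2 fold changes were -0.21 for Kv, 0.064 for Kir, -0.06 for K2P (0.014 with scaling by library size alone, 0.017 without shCtrl replicate 3 and 0.012 without shPla2g4e replicate 1, so that the sign is not fixed) and -0.37 for the calcium- and sodium-activated genes. Within Kv, 8 of 29 pore genes, 1 of 8 silent subunits and 1 of 11 auxiliary subunits were lower, and with the block 12, 4 and 2, with 1 auxiliary subunit higher.

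Summed over a class, Kv transcripts stood at 3543, 3441 and 3102 CPM in shCtrl and 2948, 2598 and 2791 CPM in shPla2g4e, without overlap, and the ratio of the means was 0.827. Kv pore transcripts alone went from 2440 ± 181 to 1933 ± 116 CPM (SD, n = 3), whereas the auxiliary subunits stood at 475 ± 17.8 and 473 ± 32.2 CPM. Calcium- and sodium-activated transcripts stood at 256, 231 and 263 CPM in shCtrl and 209, 176 and 218 CPM in shPla2g4e, again without overlap (ratio 0.804). This sum leaves out *Kcnma1*, which alone had 404 ± 44.5 CPM in shCtrl and 262 ± 12.6 CPM in shPla2g4e. The sums of the other classes overlapped between groups, at 399 ± 22.04 and 374 ± 26.8 CPM for Kir and 499 ± 13.9 and 463 ± 40.8 CPM for K2P. By replicate number, K2P sums were 508, 483 and 507 CPM in shCtrl and 464, 421 and 503 CPM in shPla2g4e, each lower. Kir sums were 424, 391 and 382 CPM in shCtrl and 378, 345 and 398 CPM in shPla2g4e, higher in replicate 3 and lower in the others. With 3 libraries a group, an exact permutation test of such a sum cannot give a two-sided p below 0.1.

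The transcripts were also searched for the site that pairs with bases 2 to 8 of the sh2 guide, the part of a small RNA that selects most of its unintended targets. The guide is the strand complementary to the target in *Pla2g4e*, and its bases 2 to 8 are in capitals.
sh2 guide: tTGGCCACcaccatcttcc
sh2 target: ggaagatggtgGTGGCCAa
The site (GTGGCCA, in capitals in the target) was read on the sense strand of GENCODE vM21 transcripts, taking for each gene the transcript with the longest coding sequence. It lay in the 3′ UTR of 14 of the 77 members with an annotated 3′ UTR (18.2%), against 11.96% of 15697 tested genes. All 14 had a log2 fold change below 0 with TMM scaling (13 with library size alone, where *Kcnd3* stood at 0.025), against 68.6% of the 1878 tested genes with the site. Among members called lower, 4 of 12 held it (33.3%; 38.1% of all genes called lower), and among those not called 10 of 64 (15.6%; 10.6% of all genes not called). With the replicate block, 10 of the 25 lower members held it (40.0%; 29.5% of all genes called lower) and 4 of the 50 not called (8.0%; 9.80% of all genes not called). Further sites lay in the longer 3′ UTR of another transcript of *Kcnc1*, and of *Kcnn1*, which is among the 14. The members' 3′ UTRs had a median of 1407 bases against 945 over all tested genes. Windows of called members are printed for *Kcnc4*, *Kcnj3* and *Kcnq3*, since those genes recur in the results, with GRCm38 coordinates of the site, 8 bases to either side and the site in capitals.
Kcnc4, chr3:107438538-107438544, minus strand: cctggccaGTGGCCAgaggatgc
Kcnj3, chr2:55596416-55596422, plus strand: cagtgcctGTGGCCAaatgagtt
Kcnq3, chr15:65987366-65987372, minus strand: agagtttgGTGGCCAcagatatt
These are matches of letters and no measured targets, and what part they had in the changes was not tested.

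The same 7 letters were more common in the coding sequence, in 32 of the 77 members (41.6%) and 20 of 36 Kv pore and silent genes (55.6%), against 25.7% of tested genes. In all 32 members a site began at the first base of a codon, as it did in 72.9% of the tested genes with a coding site. In 12 of the 77 it was part of one longer run, GANNNNGTGGCCATNNTNCC, where N is any base, whose letters were taken from the members' own sequences. *Kcna7*, a member outside the 77, held it too. Among the 12 were *Kcna3*, *Kcna5*, *Kcna6*, *Kcnc1*, *Kcnc2*, *Kcnc4*, the 3 Kcnd genes and *Kcng1*. A few of them are printed to show what the families share, *Kcnc2*, *Kcnc4* and *Kcng1* having been called lower and *Kcnc1* and *Kcnd2* not.
Kcnc1, chr7:46427625-46427631, plus strand: ttgactttGTGGCCAttctcccc
Kcnc2, chr10:112455881-112455887, plus strand: ttgactttGTGGCCAtcctcccc
Kcnc4, chr3:107448155-107448161, minus strand: tcgactttGTGGCCAtcttaccc
Kcng1, chr2:168263000-168263006, minus strand: tcgacctgGTGGCCAtcctgcct
Kcnd2, chr6:21217100-21217106, plus strand: tcgacgtgGTGGCCAtcctaccc
The median log2 fold change was -0.45 for the 14 members with a 3′ UTR site, -0.15 for the 26 with a coding site only and 0.061 for the 37 with neither. Over all tested genes these medians were -0.15, -0.041 and 0.034. A coding site lay in 7 of the 12 members called lower (58.3%, against 39.4% of all genes called lower). It lay in 24 of the 64 not called (37.5%, against 24.9% of all genes not called). With the replicate block these were 11 of 25 lower (44.0% against 39.3%) and 20 of 50 not called (40.0% against 23.9%). Of the 12 lower members, 3 held neither kind of site, among them *Kcnq5* and *Kcnk4*, which are among the largest falls. *Kcnh5*, the largest fall of any called member, held 2 coding sites, and *Kcnj16*, the 1 higher gene, held 1. This pattern was known from earlier work on these data when the genes were chosen.

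**Figure D2:**
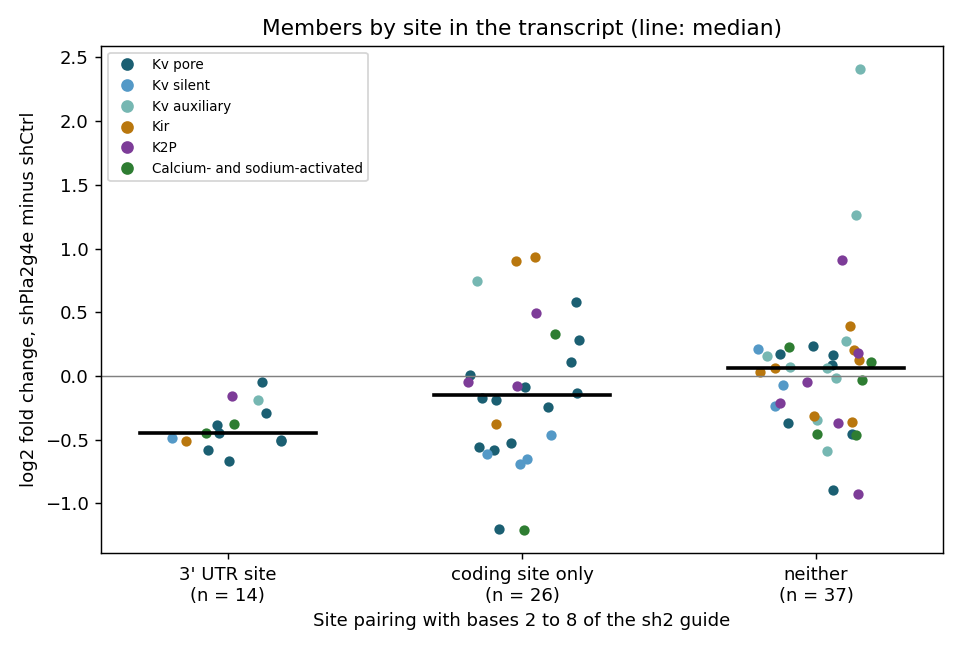
log2 fold change (y axis) of the 77 members with an annotated 3′ UTR, grouped by where their transcript holds the site of the sh2 guide (x axis), with a point per gene coloured by class and a line at the median. With the TMM scaling plotted, all 14 genes with a 3′ UTR site lie below 0 (with library size alone *Kcnd3* is at 0.025), and genes with neither site lie on both sides of it.

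The Kcnq genes encode Kv7 subunits, among them *Kcnq3* and *Kcnq5*, subunits of the M-channels that hold neurons back from repetitive firing. *Kcnq5* (chr1:21468627-22032166, minus strand, GRCm39 as all gene coordinates here) had 139, 138 and 108 CPM in shCtrl and 70.3, 66.1 and 70.0 CPM in shPla2g4e. All 3 knockdown libraries lay close together and far below the controls. This was the smallest p of the set (log2 fold change -0.90 ± 0.0969 (SE, n = 3 per group), edgeR adjusted p = 1.8e-05), and 53.7% of the control mean was left. *Kcnq3* (chr15:65858236-66158491, minus strand) had 420.1, 413 and 343 CPM in shCtrl against 326, 238 and 261 CPM in shPla2g4e, so that the groups did not overlap although shPla2g4e replicate 1 came near shCtrl replicate 3 (log2 fold change -0.51 ± 0.111 (SE, n = 3 per group), edgeR adjusted p = 0.0058). Its call was lost without shCtrl replicate 1, shCtrl replicate 2, shPla2g4e replicate 2 or shPla2g4e replicate 3, and when 10 reads were required in every library. The scarce *Kcnq1* (under 1 CPM in every library) was not called.

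The Kcnh genes encode the Kv10, Kv11 and Kv12 channels (the eag, erg and elk branches of the ether-a-go-go family). *Kcnh5* (Kv10.2; chr12:74943994-75224106, minus strand) showed the largest fall of any called member, from 17.9, 15.8 and 16.7 CPM to 7.99, 5.22 and 8.74 CPM (log2 fold change -1.20 ± 0.169 (SE, n = 3 per group), edgeR adjusted p = 2.0e-04). Every knockdown library was below every control, and shPla2g4e replicate 2 was the lowest. Its close relative *Kcnh1* (Kv10.1; chr1:191873082-192192467, plus strand) had 79.3, 72.8 and 62.2 CPM in shCtrl and 53.6, 48.6 and 43.5 CPM in shPla2g4e (log2 fold change -0.55 ± 0.102 (SE, n = 3 per group), edgeR adjusted p = 0.0018), and *Kcnh7* (Kv11.3; chr2:62523758-63014631, minus strand) had 148, 143 and 138 CPM in shCtrl and 112, 80.6 and 107 CPM in shPla2g4e (log2 fold change -0.52 ± 0.104 (SE, n = 3 per group), edgeR adjusted p = 0.0032). Neither overlapped between groups, and both calls were lost without shCtrl replicate 1 or shCtrl replicate 2. In *Kcnh7* 4.57% of the exon bases are shared with Gca on the other strand. *Kcnh3* (Kv12.2) stood at 91.3, 95.8 and 100.3 CPM in shCtrl and 77.7, 61.0 and 84.0 CPM in shPla2g4e and was not called by edgeR without the block, although DESeq2 called it (edgeR adjusted p = 0.027, and 4.3e-05 with the block). *Kcnh2*, the erg channel known from the heart's action potential, went the other way without a call (33.0, 31.7 and 28.5 CPM in shCtrl against 42.6, 36.9 and 33.8 CPM in shPla2g4e, edgeR adjusted p = 0.09). *Kcnh4*, *Kcnh6* and *Kcnh8* had under 10 CPM and were not called.

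**Figure D3:**
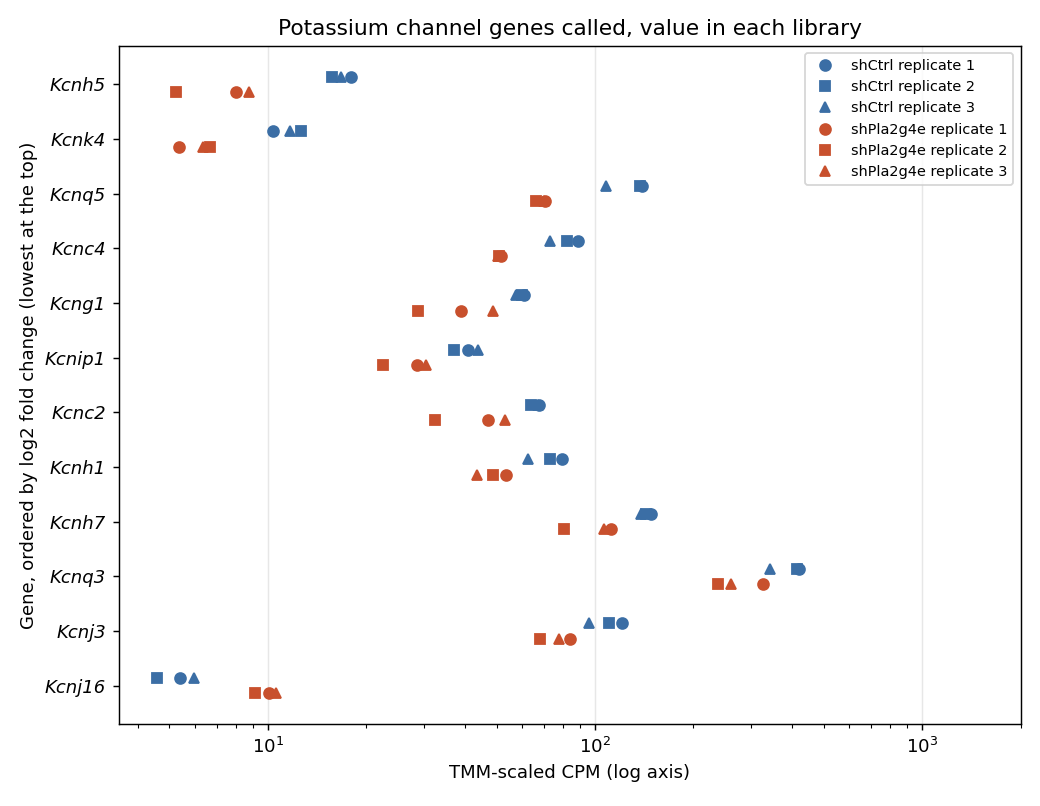
TMM-scaled CPM (x axis, log scale) of 12 of the called genes (y axis) in each library, with shCtrl in blue and shPla2g4e in orange, and the replicate number given by the shape. The groups do not overlap in any of these, and *Kcnj16* is the only one with shPla2g4e on the right.

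The Kcnc genes encode Kv3 channels, which repolarize fast enough for high-frequency firing. *Kcnc4* (Kv3.4; chr3:107345619-107366868, minus strand) had 88.6, 82.2 and 72.8 CPM in shCtrl, and 51.7, 50.7 and 50.7 CPM in shPla2g4e, where the 3 values were almost equal (log2 fold change -0.67 ± 0.0872 (SE, n = 3 per group), edgeR adjusted p = 1.0e-04). *Kcnc2* (Kv3.2; chr10:112107026-112302929, plus strand) had 67.6, 63.6 and 67.1 CPM in shCtrl and 47.2, 32.3 and 53.1 CPM in shPla2g4e. The groups did not overlap, but shPla2g4e replicate 2 lay apart from the other two (log2 fold change -0.58 ± 0.132 (SE, n = 3 per group), edgeR adjusted p = 0.0078), and the call was lost when any library but shPla2g4e replicate 3 was left out and with scaling by library size alone, upper-quartile scaling or 10 reads in every library. *Kcnc1* (Kv3.1) was not called, at 99.0, 99.4 and 84.4 CPM in shCtrl against 86.2, 80.6 and 84.4 CPM in shPla2g4e. Its log2 fold change of -0.17 was small beside those of *Kcnc4* and *Kcnc2*.

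Kv2 channels are the delayed rectifiers that cluster on soma and proximal dendrites. *Kcnb2* (Kv2.2) stood at 49.7, 49.98 and 44.2 CPM in shCtrl and 37.6, 28.1 and 40.2 CPM in shPla2g4e, without overlap, and was not called by edgeR without the block, although DESeq2 called it (log2 fold change -0.44, edgeR adjusted p = 0.019, and 6.6e-05 with the block). Silent subunits make no channel alone and alter Kv2 channels by joining them. Of these *Kcng1* (chr2:168102037-168123656, minus strand) was lower, at 60.8, 59.6 and 57.4 CPM in shCtrl against 38.9, 28.8 and 48.7 CPM in shPla2g4e. Its control values were nearly equal, whereas the knockdown values spread widely below them (log2 fold change -0.62 ± 0.135 (SE, n = 3 per group), edgeR adjusted p = 0.0062), and the call was lost under the same settings as that of *Kcnc2*. Of the 8 silent subunits 7 had a log2 fold change below 0, as had 10162 of the 21876 genes tested. *Kcns2*, with 20.2, 20.8 and 19.8 CPM in shCtrl against 17.9, 11.5 and 14.8 CPM in shPla2g4e (edgeR adjusted p = 0.045, and 0.001 with the block), *Kcns1* and *Kcnf1* were lower with the block and not without it. *Kcnv1* (log2 fold change -0.072, but 0.027 without shPla2g4e replicate 2 and 0.00095 with library size alone) overlapped between groups.

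The Kcna genes encode Kv1, the axonal channels that set spike threshold, and the Kcnd genes Kv4, the A-type channels of dendrites. None of the 7 Kcna and 3 Kcnd genes passed with edgeR, limma after voom or DESeq2, beside 6.49% of all genes tested in either direction by edgeR, and 1 of these 10 was called with the block, beside 15.5% of all genes. Whether these families differ from the others was not tested. At an unadjusted p under 0.05, 2 Kcna genes were lower and 2 higher and no Kcnd gene in either direction. *Kcna2* had 159, 158 and 144 CPM in shCtrl and 181, 168 and 170.4 CPM in shPla2g4e, the latter all higher (log2 fold change 0.17, edgeR adjusted p = 0.17). *Kcna6* stood at 92.0, 88.0 and 69.5 CPM in shCtrl and 70.8, 63.6 and 56.3 CPM in shPla2g4e, overlapping by 1 library, and was lower with the block and not without it (edgeR adjusted p = 0.028, and 2.4e-05 with the block). Of its exon bases 39.6% overlap *Gm26673* on the other strand, and without a strand option in the counting the reads cannot be told apart. *Kcnd2* and *Kcnd3* differed by -0.19 and -0.05 on the log2 scale, with SE of 0.0912 and 0.0835.

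Auxiliary subunits did not move together. *Kcnip1* (chr11:33579339-33943152, minus strand), which encodes the calcium-binding protein KChIP1 that brings Kv4 channels to the surface, had 41.0, 37.1 and 43.8 CPM in shCtrl and 28.5, 22.5 and 30.3 CPM in shPla2g4e. The groups were well apart (log2 fold change -0.59 ± 0.114 (SE, n = 3 per group), edgeR adjusted p = 0.0027), and the call was lost without shCtrl replicate 1, shCtrl replicate 3 or shPla2g4e replicate 2. *Kcnip4* was lower with the block and not without it (44.0, 51.5 and 51.2 CPM in shCtrl against 42.6, 33.1 and 39.7 CPM in shPla2g4e, edgeR adjusted p = 0.039, and 0.0017 with the block). *Kcnip3* (also known as DREAM or calsenilin), the most abundant auxiliary gene per kilobase, stood at 103, 103 and 94.7 CPM in shCtrl and 109, 106 and 120.4 CPM in shPla2g4e, with all knockdown libraries higher and no call. Among the beta subunits of Kv1, *Kcnab1* was higher with the block and not without it (60.1, 54.9 and 52.6 CPM in shCtrl against 74.95, 60.3 and 67.1 CPM in shPla2g4e, edgeR adjusted p = 0.068, and 0.005 with the block). *Kcnab2* overlapped between groups, at 153, 136 and 128 CPM in shCtrl and 144, 139.7 and 154 CPM in shPla2g4e. The 4 Kcne genes were scarce, at most 6.57 CPM in any library, and none was called by edgeR, limma after voom or DESeq2 or had an unadjusted p under 0.05.

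Inward rectifiers held the 1 gene that was higher. *Kcnj16* (chr11:110858859-110918794, plus strand) encodes Kir5.1, which joins the Kir4.1 protein of *Kcnj10* in glial cells. It had 5.38, 4.58 and 5.95 CPM in shCtrl and 10.1, 9.11 and 10.6 CPM in shPla2g4e, a clear separation at a low level (log2 fold change 0.90 ± 0.164 (SE, n = 3 per group), edgeR adjusted p = 0.0017). *Kcnj10* itself stood at 71.2, 74.2 and 85.6 CPM in shCtrl and 51.7, 45.03 and 83.7 CPM in shPla2g4e, where shPla2g4e replicates 1 and 2 were far below the controls and replicate 3 within their range. It was not called (log2 fold change -0.36, edgeR adjusted p = 0.17), while with the block the adjusted p was 9.3e-05. The summed astrocyte markers spanned 2449 to 3135 CPM in shCtrl and 1666 to 2656 CPM in shPla2g4e, and their part in the values of these glial genes was not tested. The GIRK subunits *Kcnj3*, *Kcnj6* and *Kcnj9* form the channels that inhibitory G-protein receptors open. *Kcnj3* (GIRK1; chr2:55325982-55488157, plus strand) had 121, 110.1 and 95.8 CPM in shCtrl against 83.7, 68.1 and 77.6 CPM in shPla2g4e, with every knockdown library lower (log2 fold change -0.51 ± 0.0993 (SE, n = 3 per group), edgeR adjusted p = 0.0027). Of its 50-base stretches 29.3% also occur in transcripts of other genes, so that its level is less certain, and its call was lost without shCtrl replicate 1, shCtrl replicate 2 or shPla2g4e replicate 2. *Kcnj6* (GIRK2) stood at 16.4, 14.8 and 15.2 CPM in shCtrl and 13.0, 11.1 and 11.8 CPM in shPla2g4e without a call (edgeR adjusted p = 0.063, and 0.015 with the block), and *Kcnj9* (GIRK3) overlapped at 81.4, 72.2 and 70.7 CPM in shCtrl and 82.1, 84.5 and 78.6 CPM in shPla2g4e. The classical inward rectifier gene *Kcnj4* (Kir2.3) had 97.4, 84.4 and 80.7 CPM in shCtrl against 100.05, 99.1 and 103 CPM in shPla2g4e, each knockdown library above the controls and the adjusted p by edgeR at 0.14. The 5 remaining Kir genes, among them *Kcnj11* (the pore of the ATP-sensitive channel, 15.5 to 22.2 CPM), were not called.

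Of the K2P genes *Kcnk4* (TRAAK, a leak channel opened by membrane stretch and arachidonic acid; chr19:6901334-6911883, minus strand) was lower, at 10.4, 12.6 and 11.7 CPM in shCtrl and 5.35, 6.66 and 6.34 CPM in shPla2g4e. The groups were apart by more than the spread of either (log2 fold change -0.92 ± 0.156 (SE, n = 3 per group), edgeR adjusted p = 9.1e-04). Of its exon bases 13.1% are shared with *Catsperz* on the same strand. The most abundant K2P genes per kilobase were not called. *Kcnk1* (TWIK1) stood at 47.6, 52.9 and 57.9 CPM in shCtrl and 44.3, 47.5 and 62.1 CPM in shPla2g4e and *Kcnk9* (TASK3) at 296, 275 and 298 CPM in shCtrl and 264, 237 and 277 CPM in shPla2g4e, overlapping in both cases. The log2 fold change of *Kcnk1*, -0.046 ± 0.116 (SE), had the opposite sign with scaling by library size alone and without 3 of the libraries. *Kcnk2* (TREK1) and *Kcnk10* (TREK2), the nearest relatives of *Kcnk4*, had 55.1, 48.9 and 57.9 CPM in shCtrl against 51.3, 41.5 and 64.6 CPM in shPla2g4e and 60.0, 57.2 and 48.3 CPM in shCtrl against 67.5, 57.8 and 61.6 CPM in shPla2g4e without a call, and 12.2% of the exon bases of *Kcnk2* overlap A430027H14Rik on the other strand.

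Over all genes, 10162 of the 21876 tested had log2 fold changes below 0. Among the calcium- and sodium-activated genes, the 4 Kcnn and both Kcnt genes had log2 fold changes below 0, although that of *Kcnn3*, -0.031, was 0.041 with library size alone and reached 0.019 when 1 library was left out. None of them was called by edgeR or limma after voom, DESeq2 called *Kcnt1* (DESeq2 adjusted p = 0.0031), and with the block 4 were lower. *Kcnt1* and *Kcnt2* encode Slack and Slick, the sodium-activated channels, whose subunits can join. *Kcnt1* had 87.2, 68.9 and 96.3 CPM in shCtrl and 61.0, 55.3 and 69.0 CPM in shPla2g4e, with an overlap of 1 library. *Kcnt2* had 44.9, 41.6 and 43.8 CPM in shCtrl and 36.7, 22.4 and 35.3 CPM in shPla2g4e, without overlap. Their log2 fold changes were -0.45 and -0.47, with edgeR adjusted p = 0.016 and 0.038, and 2.0e-06 and 2.8e-05 with the block. Among the SK channels, which small rises of calcium open, *Kcnn2* stood at 34.9, 33.2 and 35.7 CPM in shCtrl and 27.6, 18.3 and 29.9 CPM in shPla2g4e (edgeR adjusted p = 0.043, and 1.0e-04 with the block), and 8.13% of its exon bases overlap genes on the other strand. *Kcnn1* was lower with the block and not without it (30.3, 28.4 and 23.9 CPM in shCtrl against 21.96, 20.8 and 21.0 CPM in shPla2g4e, edgeR adjusted p = 0.035, and 0.003 with the block), while *Kcnn3* hardly differed, at 43.7, 43.2 and 48.1 CPM in shCtrl and 44.9, 41.4 and 45.9 CPM in shPla2g4e. The BK auxiliary genes *Kcnmb2* and *Kcnmb4* were scarce and not called, and 31.5% of the exon bases of *Kcnmb4* overlap its antisense RNAs. *Kcnma1*, the pore gene of BK channels, whose symbol lies outside the rule, had 426, 434 and 353 CPM in shCtrl and 276, 256 and 253 CPM in shPla2g4e (log2 fold change -0.63 ± 0.0896 (SE, n = 3 per group), edgeR adjusted p = 2.3e-04). Every knockdown library was below every control.

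Levels between genes were compared per kilobase of exon. *Kcnf1*, a silent subunit of cortical neurons, ranked first with 52.4 ± 6.14 CPM per kilobase in shCtrl and 44.6 ± 4.60 in shPla2g4e (SD, n = 3). *Kcnj4* followed, with 40.7 ± 4.08 and 46.8 ± 0.883, so that over these means the order of the first pair was inverted in shPla2g4e, by less than the SD of *Kcnf1*. Among the next by the mean of all 6 libraries were *Kcnip3* (28.3 ± 1.38 and 31.6 ± 2.11), *Kcnk1* (23.6 ± 2.29 and 23.0 ± 4.24) and *Kcnq3* (26.7 ± 2.89 and 18.7 ± 3.12). In shCtrl *Kcnip3* and *Kcnq3* differed by less than the SD of *Kcnq3*, and in shPla2g4e by more than the SD of either. At the other end *Kcne3*, the least abundant gene that passed the filter, had 0, 0 and 1 reads in shCtrl and 1, 6 and 0 in shPla2g4e, and *Kcna10*, just under it, had at most 5 reads in a library. *Kcnj8*, the vascular ATP-sensitive pore, had 0 reads in all 6. Summed per kilobase, Kv genes made up 68.4% ± 1.29 of the potassium channel level in shCtrl and 66.0% ± 1.32 in shPla2g4e, and Kir genes 15.2% ± 0.463 and 17.3% ± 0.341 (SD, n = 3).

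**Figure D4:**
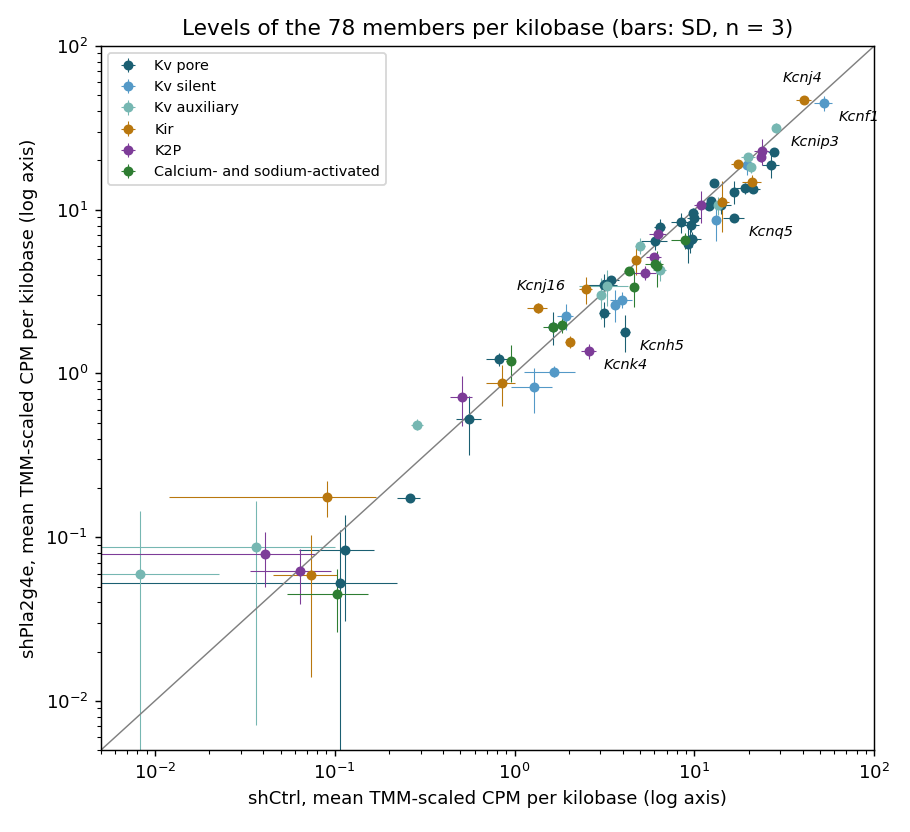
Mean CPM per kilobase of the 78 genes in shPla2g4e (y axis, log scale) against shCtrl (x axis, log scale), coloured by class, with bars for the SD of 3 libraries (cut off at the axes where they pass them) and a line where both are equal. Levels span from 0.0083 to 52.4 CPM per kilobase in shCtrl, and *Kcnq5*, *Kcnh5* and *Kcnk4* lie furthest below the line among the genes with narrow bars.

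For subunits known to assemble with each other, the ratio of their CPM per kilobase within a library does not depend on the scaling. Of 11 such pairs, 6 are described. In 4 of these the 3 libraries of one group lay on one side of the other group, each with a two-sided exact permutation p = 0.1, the smallest that 3 against 3 can give, and an adjusted p of 0.18 over the 11 pairs. *Kcnj16* to *Kcnj10* moved most, from 0.104, 0.0848 and 0.0955 in shCtrl to 0.268, 0.278 and 0.173 in shPla2g4e. All knockdown libraries were higher, with replicate 3 nearest to the controls. *Kcnj3* to *Kcnj9* went from 1.22, 1.25 and 1.11 to 0.839, 0.663 and 0.813, so that *Kcnj3* exceeded *Kcnj9* in the controls and not after knockdown, and *Kcnc4* to *Kcnc1* from 2.21, 2.04 and 2.13 to 1.48, 1.55 and 1.48. *Kcnq5* to *Kcnq3* went from 0.632, 0.637 and 0.601 to 0.413, 0.532 and 0.514. *Kcnj3* to *Kcnj6* and *Kcnt2* to *Kcnt1* overlapped (exact permutation p = 0.3 and 0.7).

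**Figure D5:**
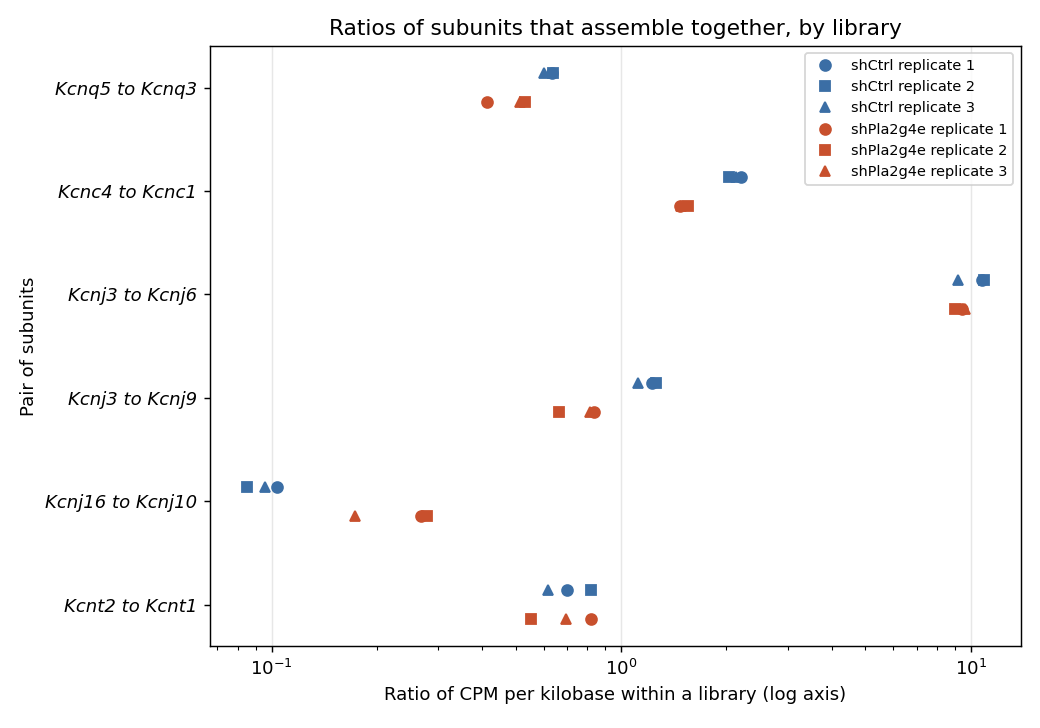
Ratio of CPM per kilobase (x axis, log scale) of 6 pairs of subunits that assemble together (y axis) in each library, with shCtrl in blue, shPla2g4e in orange and the replicate number given by the shape. The pairs *Kcnj16* to *Kcnj10*, *Kcnj3* to *Kcnj9* and *Kcnc4* to *Kcnc1* show the widest gaps between the groups.

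Of 17 tested partner genes (accessory, anchoring and scaffold proteins and *Kcnma1*), *Kcnma1* was lower by edgeR and none higher by edgeR, limma after voom or DESeq2 (DESeq2 called 2 lower), with 4 lower and 3 higher at an unadjusted p under 0.05 and a median log2 fold change of -0.05. This was 1 of 17, beside 6.49% of all genes tested. With the block, which called 15.5% of all genes, *Ank3* (ankyrin G, which anchors Kv7 channels at the axon initial segment; 536, 522 and 441 CPM in shCtrl against 439.9, 399 and 381 CPM in shPla2g4e) and *Adam22* (a partner of Kv1 channels at the axon initial segment) were also lower and *Dpp6* (an accessory protein of Kv4) higher. Of 10 genes of the sodium-potassium pump and the potassium-chloride cotransporters, none was called by edgeR or limma after voom, DESeq2 called 1 higher, 2 were higher at an unadjusted p under 0.05, and 2, among them *Slc12a7*, were higher with the block. Their median was 0.098.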

How the data were processed

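Poly(A) libraries (TruSeq Stranded mRNA), 3 of shCtrl and 3 of shPla2g4e, were analysed. Per the submitters' processing notes, the authors used FastQC 0.11.8, STAR 2.7.0d and featureCounts 1.6.0, and deposited raw counts of reads per gene. The count headers give GENCODE vM28 (GRCm39), the methods mm10 and M18. The headers hold no strand or read-pair option, so genes on opposite strands are not separated and reads were counted singly. Reads with several alignments were not counted. Symbols came from GENCODE vM21 through the identifiers (52081 of 55357 matched), as did the site search (GRCm38).

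Genes with at least 6 reads in 1 library entered edgeR 4.0.16 (R 4.3.3; TMM, glmQLFit, glmQLFTest), with Benjamini-Hochberg adjustment and a threshold of 0.01. The script was tested on simulated data. Limma 3.58.1 after voom (the authors' test), DESeq2 1.42.0, other scalings and filters, a threshold of 0.05, a replicate block and fits without each library were alternatives. Deviations from group means had correlations, for pairs of libraries with one number, of 0.392, 0.189 and 0.461 (10908 genes; -0.393 to 0.108 for unequal numbers), so the numbers were taken as pairs. Library depth (17054717 to 23570180 reads) limits the precision of low counts. Chi-square per gene was 6.06 to 15.5 within and 19.3 to 38.2 between groups, so each library was counted as its own sample.

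Named were all members called, the 2 highest per kilobase of each class, 10 called only with the block, and those next to the read minimum. Other names, and the subunit pairs, were chosen after the values were seen. Some genes and sequences named by this rule are not reported here. The members and lists were chosen with earlier results of these data known.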

Additional observations from a re-analysis of the deposited data

How the results depend on the processing

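For the 31 named genes over 15 alternatives, 385 of 465 values kept direction and side of the threshold, 33 lost the call, 41 gained it and 6 changed sign. The latter were *Kcnk1* with library size alone (0.027) and without single libraries (0.025, 0.052 and 0.0058), and *Kcnv1* with library size alone (0.00095) and without shPla2g4e replicate 2 (0.027; -0.15 to 0.027 over the left-out libraries, and -0.20 to 0.052 for *Kcnk1*). Members called lower numbered 12, and 16 with DESeq2, 21 with no filter, 25 with the replicate block and 22 at a threshold of 0.05. With the block 2 were higher. The calls of *Kcng1* and *Kcnc2* were lost with library size alone, upper-quartile scaling or 10 reads in every library. That of *Kcnq3* was lost with the last of these. Kv calls (10) became 19 with the block and 16 at 0.05. Calls of calcium- and sodium-activated genes (0) became 1 with DESeq2, 3 with no filter, 4 with the block and 4 at 0.05. Over all genes 1419 calls became 2349 with no filter, 3395 with the block and 2813 at 0.05. With library size alone the median log2 fold change of Kv was -0.14 and that of K2P 0.014, and with 10 reads in every library that of calcium- and sodium-activated genes was -0.18. None of the 31 named genes called without the block lost its call with it. Calls over all genes were 61.7% lower, and 43.4% with library size alone.

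Leaving out 1 library each gave 5 to 16 members lower and 0 to 1 higher. By class, calls ranged over 4 to 11 (Kv), 0 to 3 (Kir) and 0 to 2 (calcium- and sodium-activated), and over all genes from 695 (without shCtrl replicate 2) to 1613, with 928, 854 and 931 without shCtrl replicate 1, shPla2g4e replicate 1 and shPla2g4e replicate 2. Medians ranged from -0.29 to -0.14 (Kv), 0.037 to 0.18 (Kir), -0.20 to 0.017 (K2P) and -0.40 to -0.27 (calcium- and sodium-activated). Without shCtrl replicates 1 and 2 in turn, 4 Kv genes each were called, and 6 without shPla2g4e replicate 2. The 3 libraries of a group and the low counts of scarce members limit what could be detected. The causes of these shifts were not tested, except that leaving out libraries lowers the residual degrees of freedom.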
